A study of Mus musculus with 9 samples.

Results

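The retinoic acid receptors and the genes that make, bind and break down retinoic acid were followed in cultured mouse spermatogonial stem cells (SSCs) that carried different forms of the arginine methyltransferase PRMT5. The set holds 10 of the 53801 genes in the deposited count table, taken by gene symbol: the receptors Rara, Rarb, Rarg, Rxra and Rxrb, the retinol dehydrogenase Rdh10, the binding proteins Crabp1 and Crabp2, and the degrading enzymes Cyp26a1 and Cyp26b1. All 10 passed the filter on low counts, although Rarb and Cyp26a1 stayed close to the detection floor. RNA-seq was available for 9 libraries of cultured SSCs, 3 in each group. The study does not state how many SSC lines or donor mice they came from. The cells were Prmt5 flox/flox; Rosa26-CreERT2 by the description in the study. All 3 groups received 4-hydroxytamoxifen (4OHT) at 1 µM, which activates the ubiquitously driven Cre to delete Prmt5. The first group had 4OHT alone (labelled 4OHT). The other groups were read, from the study's description, as cells with lentiviral catalytically dead PRMT5 (E444Q) (labelled MU) and with lentiviral wild-type PRMT5 (WT) (labelled OE). The labels give only the abbreviations, so the comparisons of the constructs rest on that reading. Nothing states that the 3 libraries of a group came from separate cultures, so the p-values measure the spread between these libraries, which may be technical. A group given a virus without PRMT5, and cells that kept Prmt5, were not analysed here.

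Retinol is oxidised to retinaldehyde by enzymes such as RDH10 and then to retinoic acid by retinaldehyde dehydrogenases. CRABP proteins carry retinoic acid inside the cell, CYP26 enzymes hydroxylate it for clearance, and heterodimers of a retinoic acid receptor (RAR) with a retinoid X receptor (RXR) bind DNA and change transcription when retinoic acid is present. In the testis retinoic acid drives spermatogonia into differentiation and meiosis, with Stra8 and Kit among the genes that respond.

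The classical element bound by RAR and RXR is a direct repeat of a short half-site. The promoters of these genes were searched on both strands for direct repeats of the half-sites AGGTCA, its close variants AGTTCA as well as GGGTCA, and in addition GGTTCA, with gaps of 1, 2 or 5 bases (DR1, DR2 and DR5). RefSeq promoters of 250 bases before to 50 after a start were at hand for 8 of the 10 genes, as 14 promoters, with none for Rdh10 and Crabp2. DR5 matches occurred in the promoters of 2 genes, Rarb and Cyp26a1, whereas DR1 and DR2 matches occurred in none. Over all 32851 RefSeq promoters, 0.0974% held a DR5, 0.268% a DR2 and 0.222% a DR1, and 43.7% held a half-site of any kind. Both matches are shown because these genes are the receptor and the enzyme that were almost undetected below. The sequences are the 250 bases before each start in GRCm38.p6, written 5′ to 3′ on the strand of the gene with the repeat in capitals. That of Rarb lies at chr14:16575477-16575726 on the minus strand, with the repeat from -53 to -37 relative to the start. That of Cyp26a1 lies at chr19:37697558-37697807 on the plus strand, with the repeat from -32 to -16 and its half-sites on the opposite strand. A match describes these letters and does not show binding.
Rarb: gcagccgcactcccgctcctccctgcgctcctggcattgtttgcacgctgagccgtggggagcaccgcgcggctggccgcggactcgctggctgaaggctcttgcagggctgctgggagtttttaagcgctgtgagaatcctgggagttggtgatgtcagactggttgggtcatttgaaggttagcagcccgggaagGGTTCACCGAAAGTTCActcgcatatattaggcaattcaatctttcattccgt
Cyp26a1: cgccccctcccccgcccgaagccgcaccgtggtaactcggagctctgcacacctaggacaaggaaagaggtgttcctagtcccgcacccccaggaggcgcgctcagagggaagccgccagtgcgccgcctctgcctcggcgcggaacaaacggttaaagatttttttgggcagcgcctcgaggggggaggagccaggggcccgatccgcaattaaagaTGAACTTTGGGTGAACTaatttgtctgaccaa

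Levels are given as CPM (counts scaled to a common library size, here after TMM scaling), and tests are those of edgeR's quasi-likelihood model over all 9 libraries with Benjamini-Hochberg adjustment over 22452 genes and a threshold of 0.05. Totals ranged from 78751996 to 365719548 counts, and 1 read pair was taken to stand for roughly 4 of them. A floor of 12 counts corresponded to between 0.0328 and 0.152 CPM. The libraries with 4OHT alone varied most, with a median coefficient of variation of 6.56% against 2.02% with PRMT5 (E444Q) and 2.51% with PRMT5 (WT) among 2742 genes of at least 100 CPM. Prmt5 itself lay between 28.2 and 31.9 CPM with 4OHT alone. It lay between 145.2 and 147.1 CPM with PRMT5 (E444Q) and between 1071 and 1085 CPM with PRMT5 (WT). The construct groups thus differed in the level of Prmt5 RNA as well as in sequence. For the protein, the study reported from western blots that each construct brought PRMT5 back. Spermatogonial markers (10 genes, led by Dazl) summed to between 1895 and 2465 CPM and were present in every library. Fibroblast markers (12 genes, led by Fn1) summed to between 11900 and 14606 CPM with 4OHT alone, 6020 and 6114 CPM with PRMT5 (E444Q), and 4717 and 4812 CPM with PRMT5 (WT). The study grew SSCs on embryonic fibroblast feeders in other experiments, and whether feeders were removed before RNA extraction is not given in the sources used here. In such bulk libraries, fewer cells of a type and less RNA per cell cannot be told apart.

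The binding proteins and Cyp26b1 were lower in both construct groups than with 4OHT alone, Rdh10 was slightly lower and Rxrb slightly higher. Rara was called lower with PRMT5 (E444Q), and the remaining receptors were not called. With PRMT5 (WT), 1 of the 10 genes was called higher than with 4OHT alone and 4 were called lower, where 29.9% of all genes tested were called higher and 27.9% lower. With PRMT5 (E444Q), 1 was called higher and 5 lower, where 29.5% of all genes were called higher and 26.5% lower. The median log2 fold change of the 10 genes was -0.33 with PRMT5 (WT) and -0.32 with PRMT5 (E444Q), against 0.018 and 0.043 over all genes tested. Libraries did not overlap with those of 4OHT alone for 5 of the 10 genes with PRMT5 (WT), where 61.6% of all genes tested did not. With PRMT5 (E444Q) this held for 6 of the 10, where it held for 63.9% of all genes tested. Both comparisons used the same libraries with 4OHT alone, so their values for a gene are not independent of each other. The plot of CPM by library shows each value.

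**Figure D1:**
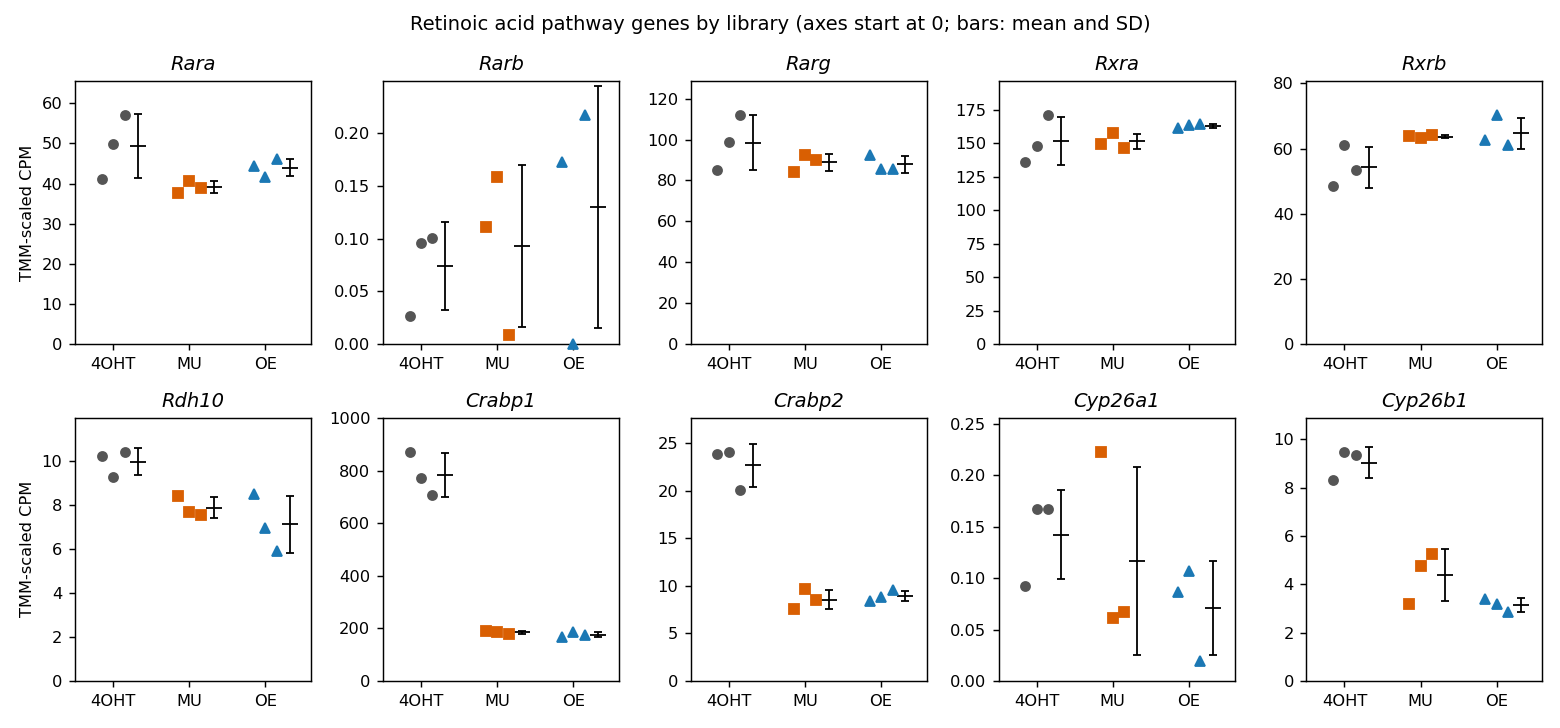
TMM-scaled CPM of the 10 genes in each library (vertical axes, each from 0) for the groups 4OHT alone (4OHT), PRMT5 (E444Q) (MU) and PRMT5 (WT) (OE), with 1 point per library and, beside the points, the mean with its SD over 3 libraries. Crabp1, Crabp2 and Cyp26b1 show no overlap of either construct group with 4OHT alone and lie below it, while Rarb and Cyp26a1 stay under 0.25 CPM. Of all genes tested, 61.6% had no overlap with 4OHT alone with PRMT5 (WT) and 63.9% with PRMT5 (E444Q), in either direction.

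Among the RARs, the nuclear receptors that bind retinoic acid itself, Rarg and Rara were expressed and Rarb was nearly absent. Rara (GRCm38 chr11:98927818-98974942, plus strand) stood at 41.0, 49.8 and 57.0 CPM with 4OHT alone, 37.7, 40.7 and 38.8 CPM with PRMT5 (E444Q), and 44.3, 41.6 and 46.0 CPM with PRMT5 (WT). The PRMT5 (E444Q) libraries lay below all others, while those with PRMT5 (WT) fell inside the range with 4OHT alone. Rara fell by 0.34 on the log2 scale with PRMT5 (E444Q) (SE 0.093, edgeR adjusted p = 0.00713), and by 0.22 without 4OHT replicate 3 or with scaling by total counts (edgeR adjusted p = 0.0280 and 0.0484). With PRMT5 (WT) its log2 fold change was -0.16 (SE 0.094, edgeR adjusted p = 0.155), which became -0.29 (edgeR adjusted p = 0.00306) without 4OHT replicate 1. Rarg (chr15:102234938-102257517, minus strand), the most abundant RAR here, stood at 85.0, 98.7 and 111.8 CPM with 4OHT alone, 84.3, 92.4 and 89.9 CPM with PRMT5 (E444Q), and 92.5, 85.5 and 85.6 CPM with PRMT5 (WT). The 3 groups overlapped. Its log2 fold changes of -0.15 with PRMT5 (E444Q) and -0.17 with PRMT5 (WT) did not pass the threshold (edgeR adjusted p = 0.135 and 0.0964), but both did without 4OHT replicate 1, at -0.26 and -0.28 (edgeR adjusted p = 0.00388 and 0.00233), and the second did with counts divided by 4 (edgeR adjusted p = 0.0334).

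Rarb (chr14:16430839-16819156, minus strand), a receptor whose gene is itself induced by retinoic acid in many cells, had 2, 8 and 9 counts with 4OHT alone, 22, 60 and 2 counts with PRMT5 (E444Q), and 14, 0 and 34 counts with PRMT5 (WT). These counts never exceeded about 15 read pairs, 5 of 9 libraries lay at or under 12 counts, and no difference was detectable at this depth. Of its exon bases, 1793 are shared with Top2b and 227 with Gm48162 on the opposite strand. Whether the counting used strand is not given in the sources used here, so reads of these genes cannot be told apart there.

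Within the RARs the proportion of the receptors could be read inside each library, which is free of scaling between libraries. Per kb of exon, Rara made up 32.7% ± 0.628 (SD, n = 3) of the 3 RARs with 4OHT alone, 30.0% ± 0.346 in the PRMT5 (E444Q) libraries and 32.8% ± 1.38 with PRMT5 (WT), and Rarg nearly all of the rest. The PRMT5 (E444Q) libraries did not overlap with either other group (two-sided exact permutation p = 0.1 for each, the smallest value that 3 against 3 libraries allow).

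The RXRs are the common partners of RARs and of several other nuclear receptors. Rxra (chr2:27676440-27762957, plus strand) stood at 135.8, 148.3 and 170.8 CPM with 4OHT alone, 149.6, 157.8 and 146.8 CPM with PRMT5 (E444Q), and 161.1, 163.9 and 164.0 CPM with PRMT5 (WT). Both construct groups lay inside the range with 4OHT alone. Its log2 fold change was -0.0023 with PRMT5 (E444Q) (edgeR adjusted p = 0.982) and 0.10 with PRMT5 (WT) (edgeR adjusted p = 0.220). The latter became 0.19 without 4OHT replicate 3 (edgeR adjusted p = 0.00428) and with scaling by total counts (edgeR adjusted p = 0.0193). Rxrb (chr17:34031812-34038399, plus strand) stood at 48.5, 61.0 and 53.3 CPM with 4OHT alone, 63.8, 63.1 and 64.2 CPM with PRMT5 (E444Q), and 62.6, 70.2 and 61.2 CPM with PRMT5 (WT). The groups with constructs lay just above the highest library with 4OHT alone. Rxrb rose by 0.25 on the log2 scale with PRMT5 (WT) (SE 0.077, edgeR adjusted p = 0.0122) and by 0.23 with PRMT5 (E444Q) (SE 0.077, edgeR adjusted p = 0.0198). Both calls were lost without 4OHT replicate 1 (0.16 and 0.14, edgeR adjusted p = 0.0685 and 0.105). The first was also lost without PRMT5 (WT) replicate 2 (edgeR adjusted p = 0.0622), and the second without PRMT5 (E444Q) replicate 2 or 3 (edgeR adjusted p = 0.0583 and 0.0732).

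Crabp1 and Crabp2, the cytoplasmic carriers of retinoic acid, had the clearest differences of the set together with Cyp26b1. Crabp1 (chr9:54764748-54773110, plus strand) stood at 871, 773 and 707 CPM with 4OHT alone, 189, 187 and 178 CPM with PRMT5 (E444Q), and 169, 184 and 176 CPM with PRMT5 (WT). All libraries with a construct lay far below those with 4OHT alone, and the construct groups overlapped. Crabp1 fell by 2.15 on the log2 scale with PRMT5 (WT) (SE 0.070, 4.44-fold, edgeR adjusted p = 1.36e-11) and by 2.08 with PRMT5 (E444Q) (SE 0.070, 4.24-fold, edgeR adjusted p = 2.60e-11). Among all genes tested, 4.14% had a lower log2 fold change with PRMT5 (WT) and 2.62% with PRMT5 (E444Q). Crabp2 (chr3:87948666-87953376, plus strand), which hands retinoic acid to RARs, stood at 23.9, 24.1 and 20.05 CPM with 4OHT alone, 7.58, 9.62 and 8.47 CPM with PRMT5 (E444Q), and 8.41, 8.84 and 9.51 CPM with PRMT5 (WT). The pattern was that of Crabp1 at a far lower level, with no overlap between either construct group and 4OHT alone. Crabp2 fell by 1.34 on the log2 scale with PRMT5 (WT) (2.54-fold, edgeR adjusted p = 1.01e-07) and by 1.40 with PRMT5 (E444Q) (2.64-fold, edgeR adjusted p = 6.54e-08). A log2 fold change below that of Crabp2 was found for 10.7% of all genes tested with PRMT5 (WT) and 7.38% with PRMT5 (E444Q).

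The ratio of the 2 carriers was read inside each library. Per kb of exon, Crabp1 was 57.1 ± 3.70 (SD, n = 3) times as abundant as Crabp2 with 4OHT alone, 35.9 ± 4.61 times with PRMT5 (E444Q) and 32.7 ± 1.97 times with PRMT5 (WT). Both construct groups lay entirely below 4OHT alone (two-sided exact permutation p = 0.1, the smallest possible) and did not separate from each other (p = 0.4 in the same exact test).

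Among other cell types, the summed markers of fibroblasts and peritubular myoid cells fell as well. Those of leukocytes rose, to 608% ± 10.7 of the 4OHT mean with PRMT5 (E444Q) and 1194% ± 31.5 with PRMT5 (WT) (SD, n = 3). Summed fibroblast markers dropped to 46.1% ± 0.387 of the 4OHT mean with PRMT5 (E444Q) and to 36.2% ± 0.400 with PRMT5 (WT) (SD, n = 3). By edgeR 12 of 12 were lower with PRMT5 (WT), and 11 lower and 1 higher with PRMT5 (E444Q). The single genes differed widely, with log2 fold changes from -2.22 to -0.26 with PRMT5 (WT) and from -1.86 to 0.17 with PRMT5 (E444Q). Summed markers of peritubular myoid cells (6 genes, led by Tagln) dropped from between 223 and 228 CPM to 66.1 to 71.8 CPM with PRMT5 (E444Q) and 55.4 to 58.3 CPM with PRMT5 (WT), with 5 of 6 lower in each. On the same scale Crabp1 stood at 23.6% ± 0.732 and 22.5% ± 1.01, Crabp2 at 37.8% ± 4.50 and 39.4% ± 2.46, and Cyp26b1 at 48.6% ± 11.8 and 34.7% ± 3.02, with PRMT5 (E444Q) and PRMT5 (WT) respectively. Spermatogonial markers went the other way as a sum, to 116% ± 2.02 and 126% ± 0.861, with 5 of 10 genes higher and 4 lower in each comparison. Ddx4, Dazl, Sall4, Utf1 and Lin28a were higher, whereas Etv5, Gfra1, Ret and Zbtb16 were lower. Mean Etv5 went from 126 CPM with 4OHT alone to 13.8 CPM with PRMT5 (E444Q) and 12.1 CPM with PRMT5 (WT). In the same order, Gfra1 went from 120 to 27.5 and 28.2 CPM. Ret went from 376 to 195 and 203 CPM, and Zbtb16 from 291 to 183 and 200 CPM. Sertoli markers (8 genes, led by Sox9) summed to between 19.6 and 29.0 CPM over all libraries, with 4 higher and 2 lower in each comparison, Fshr at 0 in every library and Amh at no more than 0.171 CPM. Leydig markers (6 genes, of which Star gave nearly all) summed to between 4.51 and 7.12 CPM, with 1 higher in each comparison and Hsd3b1 and Lhcgr at 0 throughout. The part of feeder or other somatic cells in the falls of Crabp1, Crabp2 and Cyp26b1 was not tested.

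**Figure D2:**
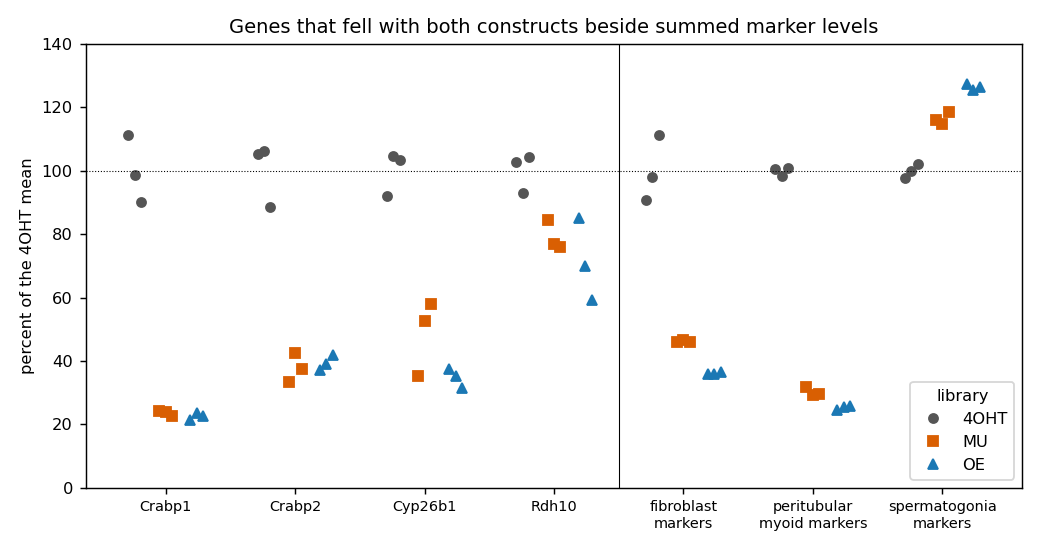
Level in each library as a percentage of the mean with 4OHT alone (vertical axis, from 0) for the 4 genes that fell with both constructs and, right of the line, for 3 summed marker lists, with 1 point per library (4OHT, 4OHT alone; MU, PRMT5 (E444Q); OE, PRMT5 (WT)). Crabp1 fell to lower percentages than the summed fibroblast markers in every library with a construct, and Rdh10 stayed above that sum. The spermatogonial sum joins 5 genes called higher with 4 called lower in each comparison, Gfra1 and Etv5 among the latter. Sertoli, Leydig and leukocyte markers are not drawn, and the leukocyte sum rose with both constructs.

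Rdh10 (chr1:16105774-16133734, plus strand), which makes retinaldehyde, stood at 10.2, 9.29 and 10.4 CPM with 4OHT alone, 8.42, 7.67 and 7.57 CPM with PRMT5 (E444Q), and 8.504, 6.97 and 5.92 CPM with PRMT5 (WT). Every library with a construct lay below every library with 4OHT alone, by a small margin. Rdh10 fell by 0.49 on the log2 scale with PRMT5 (WT) (SE 0.126, edgeR adjusted p = 0.00427) and by 0.34 with PRMT5 (E444Q) (SE 0.124, edgeR adjusted p = 0.0317). The second call was lost without 4OHT replicate 1 or 3 or PRMT5 (E444Q) replicate 2 or 3 (edgeR adjusted p between 0.0641 and 0.0873), as well as without the filter on low counts and with scaling by total counts.

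Cyp26b1 (chr6:84571414-84593908, minus strand), the CYP26 enzyme that shields germ cells of the fetal testis from retinoic acid, stood at 8.32, 9.48 and 9.34 CPM with 4OHT alone, 3.20, 4.75 and 5.24 CPM with PRMT5 (E444Q), and 3.38, 3.20 and 2.85 CPM with PRMT5 (WT). Both groups with a construct lay below 4OHT alone without overlap. Cyp26b1 fell by 1.53 on the log2 scale with PRMT5 (WT) (SE 0.168, 2.89-fold, edgeR adjusted p = 2.59e-06) and by 1.04 with PRMT5 (E444Q) (SE 0.162, 2.05-fold, edgeR adjusted p = 8.18e-05). A log2 fold change below that of Cyp26b1 was found for 8.75% of all genes tested with PRMT5 (WT) and 12.4% with PRMT5 (E444Q). Cyp26a1 (chr19:37697798-37701536, plus strand), an enzyme that retinoic acid induces strongly in many tissues, had 7, 14 and 15 counts with 4OHT alone, 44, 23 and 16 counts with PRMT5 (E444Q), and 7, 10 and 3 counts with PRMT5 (WT). With at most about 11 read pairs in a library, and 4 of 9 libraries at or under 12 counts, no difference was detectable at this depth. Cyp26c1, the remaining family member, had at most 13 counts and was not tested.

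Rdh10 and Cyp26b1 act at opposite ends of the pathway, and their ratio per kb of exon averaged 1.43 with 4OHT alone, 2.44 in PRMT5 (E444Q) and 2.91 in PRMT5 (WT) libraries. Both construct groups lay above 4OHT alone without overlap (two-sided exact permutation p = 0.1, the smallest possible) but not apart from each other (p = 0.4 in the same exact test).

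Between the constructs, none of the 10 genes was called different by edgeR (0 higher and 0 lower), which called 2.12% of all genes tested higher in PRMT5 (E444Q) than in PRMT5 (WT) and 1.06% lower. DESeq2 also called 0 of the 10. At an unadjusted p under 0.05 in edgeR only Cyp26b1 of the 10 remained, where 2791 of all 22452 genes tested did. Cyp26b1 was higher with PRMT5 (E444Q) by 0.49 on the log2 scale (95% interval 0.14 to 0.85, edgeR adjusted p = 0.175), with overlapping libraries. The lowest PRMT5 (E444Q) library was replicate 1, and without it the value was 0.67 (edgeR adjusted p = 0.0229). Fibroblast markers differed in the same direction, with 11 of 12 higher with PRMT5 (E444Q) and a median of 0.36, and their part in the difference was not tested. For the other genes the intervals give the differences that these libraries allow. The 95% interval of the log2 difference ran from -0.37 to 0.029 for Rara, from -0.16 to 0.19 for Rarg, from -0.26 to 0.042 for Rxra and from -0.19 to 0.14 for Rxrb. It ran from -0.12 to 0.42 for Rdh10, from -0.079 to 0.21 for Crabp1 and from -0.29 to 0.17 for Crabp2. Rara and Rxra had no overlap between the constructs, with the lower values in PRMT5 (E444Q), as had 25.9% of all genes tested.

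**Figure D3:**
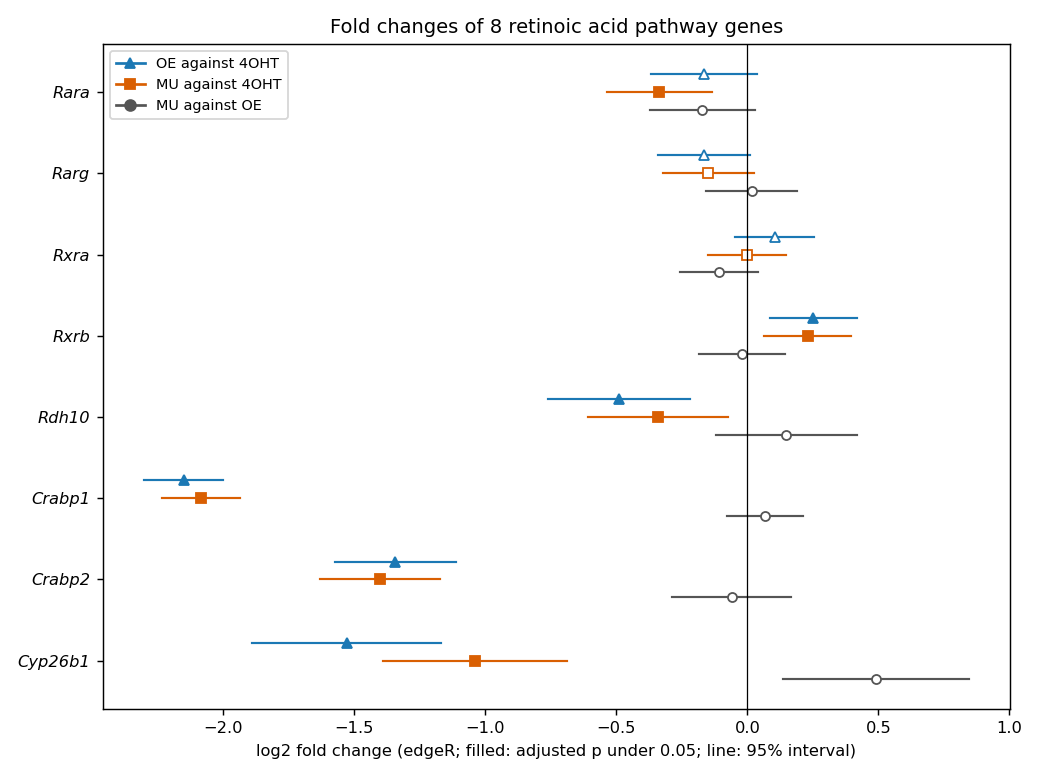
Log2 fold change (horizontal axis) with its 95% interval from edgeR for 8 of the genes in PRMT5 (WT) against 4OHT alone (OE against 4OHT), PRMT5 (E444Q) against 4OHT alone (MU against 4OHT) and PRMT5 (E444Q) against PRMT5 (WT) (MU against OE), with filled symbols for an adjusted p under 0.05. Rarb and Cyp26a1 are left out because their counts were near the floor, and no gene passed the threshold between the constructs.

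The levels of different genes were compared per kb of exon. With 4OHT alone the order was Crabp1 at 977 CPM per kb, then Rxra at 27.8, Rarg at 23.1, Crabp2 at 17.1, Rxrb at 13.7, Rara at 11.3, Rdh10 at 2.40, Cyp26b1 at 1.69, Cyp26a1 at 0.0718 and Rarb at 0.0141 CPM per kb. Neighbours overlapped between Rxra and Rarg, between Crabp2 and Rxrb and between Rxrb and Rara. With either construct the first place stayed with Crabp1, at 230 CPM per kb with PRMT5 (E444Q) and 220 with PRMT5 (WT). Crabp2 then lay below Rxrb and Rara, at 6.47 and 6.75 CPM per kb, and no neighbours overlapped except Cyp26a1 and Rarb with PRMT5 (WT).

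**Figure D4:**
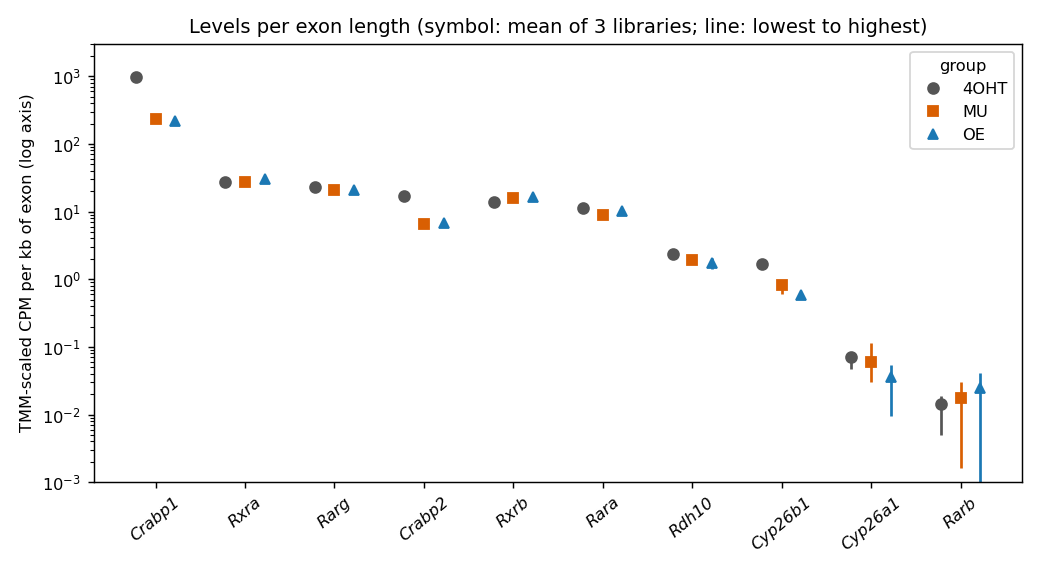
TMM-scaled CPM per kb of exon (vertical log axis) for the 10 genes in the order of their level with 4OHT alone, where symbols give the mean of 3 libraries of 4OHT alone (4OHT), PRMT5 (E444Q) (MU) and PRMT5 (WT) (OE) and lines the lowest to the highest library. Crabp1 is highest in all 3 groups, and the line of Rarb with PRMT5 (WT) runs to the axis because 1 library held 0 counts.

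Of the genes whose group means differed by at least 1 on the log2 scale, the closest profiles over the 9 libraries were sought among all genes tested, by the root mean square distance between centred log2 CPM values. The closest to Crabp1 were Gfra1, the co-receptor for GDNF that marks self-renewing spermatogonia, at a distance of 0.0845, and Tmsb4x, an actin-binding peptide gene, at 0.101. Gfra1 went from a mean of 120 CPM with 4OHT alone to 27.5 CPM with PRMT5 (E444Q) and 28.2 CPM with PRMT5 (WT). The closest to Crabp2 were Rcbtb2 at 0.107 and the carbonic anhydrase gene Car13 at 0.110. Those of Cyp26b1 were Emx2os, an antisense transcript of Emx2, at 0.122 and Cd80, a costimulatory ligand of immune cells, at 0.126. Without strand, reads of Emx2os and Emx2 cannot be told apart where they overlap. For Cyp26a1 the distances were larger, at 0.357 to Mx1 and 0.387 to Gm10139, and rest on counts near the floor.

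Around these genes, a list of 31 further genes of the pathway was read from the same fit, of which 30 were tested. With PRMT5 (WT), 12 were higher, 10 lower and 8 not called, and with PRMT5 (E444Q), 13 were higher, 12 lower and 5 not called. Over all genes tested, 29.9% were called higher and 27.9% lower in the first comparison, and 29.5% and 26.5% in the second, which are also the shares to set beside the counts of each smaller group. Their median log2 fold changes were 0.0096 and 0.099, against 0.018 and 0.043 over all genes.

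Genes that retinoic acid is known to induce, or that act downstream of it in germ cells, were higher in both groups in 7 of 8 listed cases, where 29.9% and 29.5% of all genes were called higher. Other genes known to be induced by retinoic acid in some cells were listed under other roles, so 7 of 8 does not describe all such genes. Of these, Rarb and Cyp26a1 were not called, and Crabp2, Cyp26b1 and Nrip1 were lower in both groups. Stra6 and Dhrs3 were lower with PRMT5 (E444Q) and not called with PRMT5 (WT). Stra8, the gatekeeper of meiosis, stood at 9.03, 10.7 and 10.6 CPM with 4OHT alone, 38.5, 34.8 and 34.2 CPM with PRMT5 (E444Q), and 34.8, 36.6 and 36.0 CPM with PRMT5 (WT). It rose by 1.82 on the log2 scale in both (edgeR adjusted p = 2.00e-10 with PRMT5 (WT) and 2.49e-10 with PRMT5 (E444Q)). Values of log2 fold change follow with PRMT5 (WT) first and PRMT5 (E444Q) second. Kit, the receptor of differentiating spermatogonia, rose by 2.33 and 2.32, the transglutaminase Tgm2 by 1.44 and 1.02, and Cdx1 by 1.33 and 1.42. Gm4969 (Meiosin, the partner of STRA8) rose by 0.83 and 1.07, Hoxb1 by 0.95 and 0.72, and the meiotic cohesin Rec8 by 0.61 and 0.57. The call for Cdx1 rested on few counts with 4OHT alone (11, 68 and 28), and was lost without 4OHT replicate 1 or 3 or PRMT5 (WT) replicate 3 in the first comparison and without 4OHT replicate 3 in the second. Without 4OHT replicate 2 the log2 fold changes of Cdx1 were 2.21 and 2.31, and over all fits they ranged from 0.91 to 2.21 and from 1.01 to 2.31. Leukocyte markers (8 genes, led by Lyz2) were also higher in 8 of 8 cases in both, with sums of 166 to 178 CPM with 4OHT alone, 1021 to 1055 CPM with PRMT5 (E444Q) and 2002 to 2106 CPM with PRMT5 (WT). Their part in these rises was not tested.

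Among receptors and coregulators, Rxrg, the third RXR, stood at 1.503, 1.28 and 1.51 CPM with 4OHT alone, 0.137, 0.122 and 0.202 CPM with PRMT5 (E444Q), and at 7, 4 and 4 counts with PRMT5 (WT), all under the floor of 12 counts. It was at least 12.2-fold lower with PRMT5 (WT), as 4OHT alone against that floor per library, and fell by 3.22 on the log2 scale with PRMT5 (E444Q) (edgeR adjusted p = 1.17e-05). Nrip1, a corepressor recruited by liganded receptors, fell by 2.24 and 2.23, and the corepressor Ncor1 fell by 0.35 and 0.46. The coactivators Ncoa3 and Ncoa1 rose by 0.98 and 0.87 and by 0.63 and 0.42. Ncoa2 fell by 0.23 with PRMT5 (E444Q), a call lost without the filter on low counts and with scaling by total counts. Its log2 fold change was -0.14 without 4OHT replicate 3, and -0.077 with PRMT5 (WT). The whole group of 6 coregulators counted 2 higher and 3 lower with PRMT5 (WT), and 2 higher and 4 lower with PRMT5 (E444Q), against 29.9% and 27.9%, and 29.5% and 26.5%, of all genes.

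Of the 6 enzymes of retinoic acid synthesis, 1 was higher and 3 lower with PRMT5 (WT), and 1 was higher and 2 lower with PRMT5 (E444Q), against 29.9% and 27.9%, and 29.5% and 26.5%, of all genes. Counts this small lie near those shares. Aldh1a2, a retinaldehyde dehydrogenase that forms retinoic acid, rose by 0.66 and 0.67. Its relative Aldh1a3 fell by 0.96 and 1.34, at levels of 1.58 CPM or less, a call lost in the first comparison without 4OHT replicate 2 (edgeR adjusted p = 0.0526). Dhrs9, a retinol dehydrogenase, stood at 56.2, 47.2 and 50.8 CPM with 4OHT alone and at no more than 12.01 CPM with a construct, and fell by 2.67 and 2.10. The alcohol dehydrogenase gene Adh1 fell by 0.62 with PRMT5 (WT), and had a log2 fold change of 0.022 with PRMT5 (E444Q) (edgeR adjusted p = 0.914). The enzymes that return retinaldehyde to retinol were lower or not called. Dhrs4 fell by 1.41 and 1.13, Rdh11 by 0.74 and 0.55, and Dhrs3 by 0.59 with PRMT5 (E444Q), with -0.030 in PRMT5 (WT).

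In uptake and storage, the retinol carrier Rbp4 rose by 1.45 and 1.43, and the carotene-cleaving Bco1 by 0.54 and 0.54, a call that was lost in each comparison without 4OHT replicate 2 and without replicate 2 or 3 of the construct. Stra6, the receptor for retinol-binding protein, fell by 2.08 with PRMT5 (E444Q) and was not called with PRMT5 (WT) (-1.32, edgeR adjusted p = 0.0518), at 1.10 CPM or less. Fabp5, an alternative carrier of retinoic acid, rose by 0.45 with PRMT5 (E444Q) and was not called with PRMT5 (WT) (0.18, edgeR adjusted p = 0.128). Lrat, which esterifies retinol, was not called in either comparison. The plot of pathway fold changes shows the named genes other than Rxrg with their intervals.

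**Figure D5:**
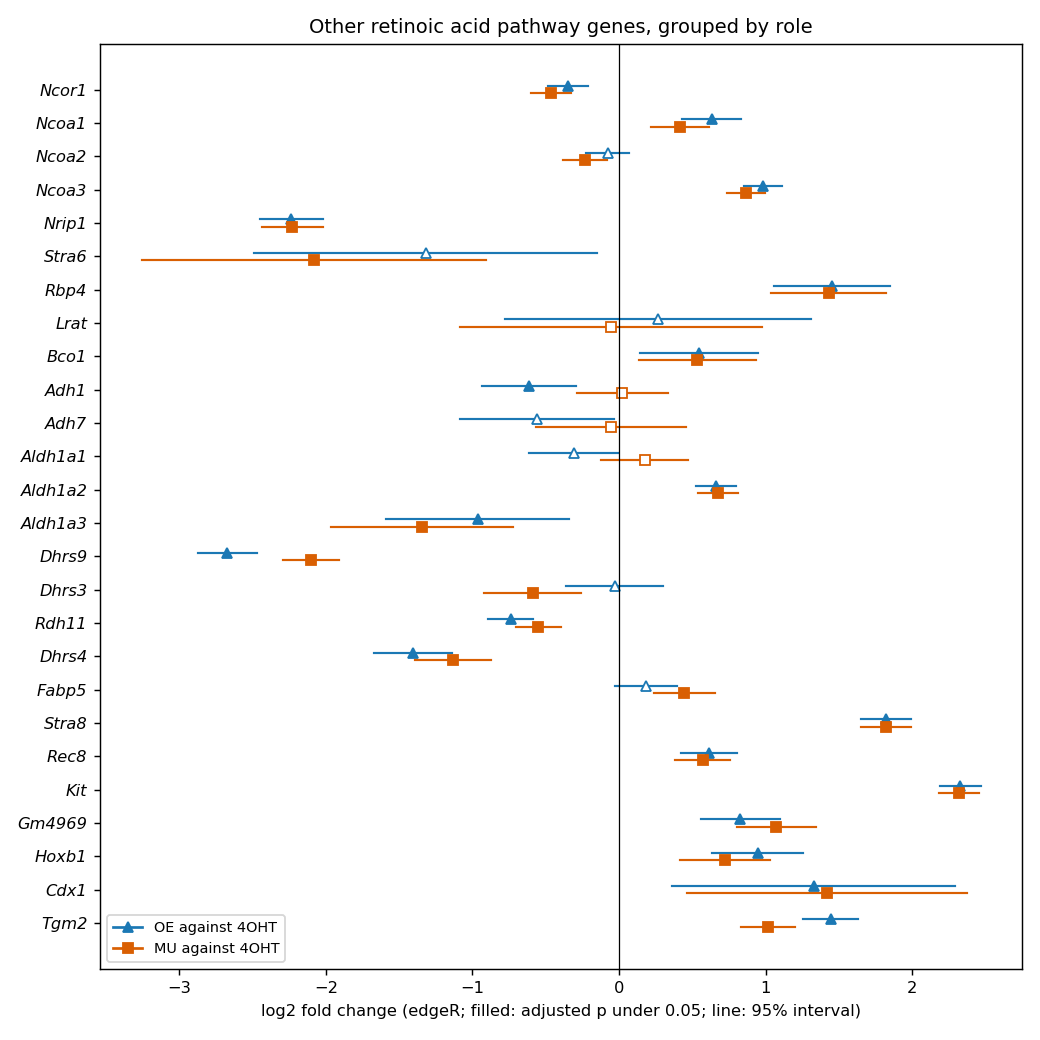
Log2 fold change (horizontal axis) with its 95% interval from edgeR for 26 of the other pathway genes, from coregulators at the top to responsive genes at the bottom, in PRMT5 (WT) (OE) and PRMT5 (E444Q) (MU) against 4OHT alone, with filled symbols for an adjusted p under 0.05. Rxrg is left out because of its counts with PRMT5 (WT), and Nrip1 and Dhrs9 lie furthest to the left while Kit and Stra8 lie furthest to the right.

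Between the constructs, 2 of the 30 pathway genes were higher and 1 lower with PRMT5 (E444Q), where edgeR called 2.12% of all genes higher and 1.06% lower. Dhrs9 stood at 12.01, 11.99 and 11.92 CPM with PRMT5 (E444Q) and 9.09, 7.98 and 7.20 CPM with PRMT5 (WT), and differed by 0.57 on the log2 scale (edgeR adjusted p = 0.00213). Adh1 stood at 2.94, 3.05 and 3.11 CPM against 2.07, 1.83 and 1.96 CPM, and differed by 0.64 (edgeR adjusted p = 0.0282). Tgm2 was lower, at 40.8, 40.4 and 38.8 CPM against 52.7, 54.9 and 53.8 CPM, a difference of -0.43 (edgeR adjusted p = 0.0112). The call for Adh1 was lost when any 1 library of a construct was left out (edgeR adjusted p between 0.0591 and 0.129), and that for Tgm2 without replicate 2 or 3 of either construct (edgeR adjusted p between 0.0536 and 0.0762). Stra8 and Kit differed between the constructs by -0.0003 (95% interval -0.16 to 0.16) and -0.011 (95% interval -0.14 to 0.12).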

How the data were processed

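Each group had 3 RNA-seq libraries, 9 in all, and the number of mouse SSC lines behind them is not stated. The deposited table holds raw counts for each gene, as whole numbers, and no normalized values. By its methods, the authors used BBmap and Trimmomatic 0.39 to clean paired reads of 150 bp, HISAT2 2.2.1 for alignment (GRCm38) and StringTie 2.2.1 for quantification. How its output became counts, and whether strand was used, is not given in the sources used here.

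Counts were tested in R 4.3.3 with edgeR 4.0.16 (filterByExpr by group with minimum count 10 and minimum total 15, TMM, quasi-likelihood F-test on all 9 libraries, group as the only factor, threshold 0.05). DESeq2 1.42.0 was an alternative, as were other scaling, no filter, a fold threshold of 1.5, counts divided by 4, the 2 groups compared alone, a replicate block and leaving out each library. Shares and ratios within libraries were tested by exact permutation. Values of 4 counts were 1.35 to 1.84 times as frequent as their neighbours, and values of 8 counts 0.980 to 1.41 times. From this 12 counts were taken as about 3 read pairs, which is an estimate. The floor covers counting error only. Positions and exon lengths came from GENCODE vM21, and promoters from RefSeq (GRCm38.p6). Gene lists were read from the fit to the whole table. The text names all 10 genes, pathway genes past the threshold, Prmt5, the most abundant marker of each list, and the 2 nearest profiles of each gene whose group means differ by 1 on the log2 scale. Some pathway genes are counted but not reported here by name. Other genes were chosen after their values were seen. The genes, lists and tests were chosen with earlier results of these data known. The steps were tested on simulated data with the same spread for all genes and libraries. Those data leave out the larger spread with 4OHT alone.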

Additional observations from a re-analysis of the deposited data

How the results depend on the processing

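Crabp1, Crabp2 and Cyp26b1 kept their direction and their call against 4OHT alone in all 18 fits of each comparison, and Rara with PRMT5 (E444Q) in 17 of 18. Rxrb was called in 15 of 18 fits with PRMT5 (WT) and 14 of 18 with PRMT5 (E444Q), and Rdh10 in 17 and 11 of 18. The numbers of calls depended most on a test for a fold above 1.5. It left 5645 genes, 3 of the 10 and 14 pathway genes with PRMT5 (WT) against 4OHT alone, 5059, 3 and 13 with PRMT5 (E444Q) against 4OHT alone, and 34, 0 and 0 between the constructs, because it asks for larger changes. Between the constructs DESeq2 called 1114 genes and 6 pathway genes, a fit of those 2 groups alone called 1565 and 8, and counts divided by 4 gave 5 pathway genes. The cause was not tested. Leaving out 1 library at a time gave between 400 and 1099 genes, 0 and 1 of the 10 genes (Cyp26b1, without PRMT5 (E444Q) replicate 1) and 1 and 4 pathway genes between the constructs.

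Same-numbered libraries did not deviate together (correlations from -0.019 to 0.043), so no pairing by number was visible. Whether they were prepared in pairs is not given in the sources used here. With the replicate block there were 12807 calls with PRMT5 (WT), 12443 with PRMT5 (E444Q) and 674 between the constructs, with 5, 6 and 0 of the 10 genes and 23, 25 and 2 pathway genes, and Adh1 lost its call between the constructs.

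Differences near 0 changed sign. Rxra with PRMT5 (E444Q) against 4OHT alone became 0.061 without the filter, 0.0029 with those 2 groups alone, 0.0018 with the replicate block, 0.11 with total counts and -0.088 to 0.086 with a library left out. That scaling by total counts was added after seeing the data, and shifted the median of all genes by 0.112 in this comparison. With a library left out, Rarb ranged from -0.34 to 0.84 and Cyp26a1 from -1.14 to 0.0053 in the same comparison. Between the constructs Rxrb became 0.018 without the filter, 0.0027 with total counts and -0.058 to 0.040 with a library left out. There Crabp2 ranged from -0.15 to 0.019, Cyp26a1 from -0.10 to 1.21, Rarg from -0.011 to 0.055 and Rarb from -1.13 to 0.14 with a library left out. Depth limits Rarb and Cyp26a1, which held at most 60 and 44 counts.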
